A study of Mus musculus with 2 samples.

Results

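The Nfi genes Nfia, Nfib, Nfic and Nfix encode the nuclear factor I family of transcription factors. The regions described here are the p300 peaks around these 4 genes, chosen by position alone. A peak belonged to a gene if its midpoint lay inside the gene body or within 500 kb of the gene's transcription start site (TSS), taken from the annotated transcript that codes for the longest protein. The rule gave 49 of the 6629 deposited p300 peaks to the 4 of 22367 protein-coding genes, and no peak belonged to more than 1 Nfi gene. The family was picked because an Nfi dimer sequence marks the peaks of this study as a whole, so the shares of peaks with Nfi sites are given as descriptions, with no test.

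The study mapped where p300 sits on chromatin in the dorsal cerebral wall of Swiss Webster mouse embryos at embryonic day 14.5. The tissue holds the developing neocortex with its progenitors; medial structures, the hem and hippocampus, and the choroid plexus had been cut away before the chromatin was fixed with formaldehyde. There was 1 library immunoprecipitated with the anti-p300 antibody C-20 and 1 input library, which is not analysed here, and neither had a replicate. Every test below therefore compares places in the genome within 1 library and no test compares samples. The peak list gives positions only, with no score or read count, so the depth behind a single peak is unknown. The authors had removed peaks at exons and peaks within 2.5 kb of a TSS by the annotation they used, so promoters in it were not covered. Whole tissue was used, so a peak cannot be given to a cell type.

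p300 is a histone acetyltransferase that is brought to DNA by transcription factors and is widely used to locate active enhancers. Nfi proteins bind DNA as dimers through a conserved amino-terminal domain, each subunit contacting a TTGGC sequence, so that a full site is a palindrome of a TTGGC and its reverse complement GCCAA a few bases apart. In the developing cortex Nfia, Nfib and Nfix act in radial glia, where their loss delays the step from proliferation to differentiation and impairs gliogenesis and the formation of the corpus callosum and hippocampus. Nfic is best known for its role in tooth root formation. Distance to a TSS does not show which gene a peak acts on, and no expression was measured here.

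The full dimer, written TGGCNNNNNGCCA with N for any base, occurred in 2 of the 49 Nfi peaks. Both sites are shown with 20 bases on either side because they are the only full dimers in these peaks, on the plus strand of mm9 (the NCBIM37 assembly), with the 8 fixed bases in capitals. The site in peak 4408 of the deposited list lies at chr4:97535931-97535983 in intron 2 of Nfia, and the site in peak 4353 at chr4:82336307-82336359 lies upstream of the Nfib TSS, inside the gene body.
Nfia peak 4408: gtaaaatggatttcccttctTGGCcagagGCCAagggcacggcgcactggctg
Nfib peak 4353: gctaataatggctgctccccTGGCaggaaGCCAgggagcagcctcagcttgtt
The Nfia site also has the outer T and A of the longer form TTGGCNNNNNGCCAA, which the Nfib site lacks.

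Single TTGGC sites were far more frequent than the dimer, and for each gene the stretch of 200 bases with the most of them is shown, on the plus strand of mm9, with every TTGGC or its reverse complement GCCAA in capitals. The stretches lie in intron 2 of Nfia (chr4:97593577-97593776), between genes upstream of Nfib (chr4:82509270-82509469), in intron 2 of Nfic (chr10:80874267-80874466), and upstream of the Nfix TSS inside its gene body (chr8:87318079-87318278).
Nfia peak 4411: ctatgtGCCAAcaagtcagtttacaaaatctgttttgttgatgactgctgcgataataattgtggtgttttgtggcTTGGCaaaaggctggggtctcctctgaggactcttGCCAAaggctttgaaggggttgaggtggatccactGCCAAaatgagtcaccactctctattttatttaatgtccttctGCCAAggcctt
Nfib peak 4355: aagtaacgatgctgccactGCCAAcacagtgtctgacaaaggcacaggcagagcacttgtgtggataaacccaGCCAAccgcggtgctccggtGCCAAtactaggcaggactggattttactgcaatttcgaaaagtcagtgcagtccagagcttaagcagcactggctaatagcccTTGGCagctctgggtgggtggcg
Nfic peak 611: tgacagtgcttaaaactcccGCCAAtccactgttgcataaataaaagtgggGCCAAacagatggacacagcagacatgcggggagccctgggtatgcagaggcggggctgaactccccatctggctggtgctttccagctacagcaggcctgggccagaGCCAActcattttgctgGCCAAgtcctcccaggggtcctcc
Nfix peak 5977: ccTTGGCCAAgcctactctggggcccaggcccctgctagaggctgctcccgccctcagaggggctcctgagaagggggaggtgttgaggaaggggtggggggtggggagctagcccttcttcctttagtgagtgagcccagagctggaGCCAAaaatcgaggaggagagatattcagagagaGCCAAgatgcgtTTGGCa
The Nfia and Nfix stretches each held 5 single sites, counting both of an overlapping pair at the start of the Nfix stretch, and the Nfib and Nfic stretches held 4 each.

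Nfib and Nfia lay among the coding genes with the most p300 peaks around them, whereas the numbers around Nfic and Nfix were within what many genes had. The window of each gene spanned 1.00 Mb, in which 2.59 peaks would fall if peaks were spread evenly over the 2.56 Gb of assembled sequence. Nfib had 21 peaks (exact Poisson 95% interval 13.0 to 32.1), 8.11-fold the even share (one-sided exact binomial test with Benjamini-Hochberg adjustment over all coding genes, adjusted p = 5.29e-10). Nfia had 17 peaks (9.90 to 27.2), a 6.56-fold excess by the same test (adjusted p = 7.62e-07, exact). For Nfic the count was 6 (2.20 to 13.1), or 2.32-fold with an exact adjusted p of 0.383, and for Nfix it was 5 (1.62 to 11.7), or 1.93-fold with an exact adjusted p of 0.684. Thus 2 of the 4 genes passed the threshold of 0.05, against 914 of all 22367 coding genes, or 4.09%. Intervals cover counting error only. Peaks gather in clusters across the genome, which the binomial test does not model, so its p-values are too small.

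The median coding gene had 1.00 peak in its window, the upper quartile was 3 and the 99th percentile was 12.0. At least 21 peaks were found for 34 genes (0.152%), and at least 17 for 78 genes (0.349%), counting Nfib and Nfia themselves. At least 6 peaks were found for 2839 genes (12.7%) and at least 5 for 3982 genes (17.8%). Since neighbouring genes share peaks, these genes formed fewer places in the genome: only 6 separate loci had more peaks than Nfib, and 13 had more than Nfia. The loci next to Nfib in the order of p-values were that of Bri3bp and the RNA helicase gene Dhx37 on chromosome 5 and that of the Ral GTPase-activating protein gene Ralgapa2 on chromosome 2, with 21 peaks each. The genes next to Nfia were Micall2, Tmem184a and Psmg3, which encodes a proteasome assembly chaperone, together on chromosome 5, and the acetyltransferase gene Naa20 on chromosome 2, with 17 peaks each. Neighbours in this order with the same count had the same p and were ordered by name.

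**Figure D1:**
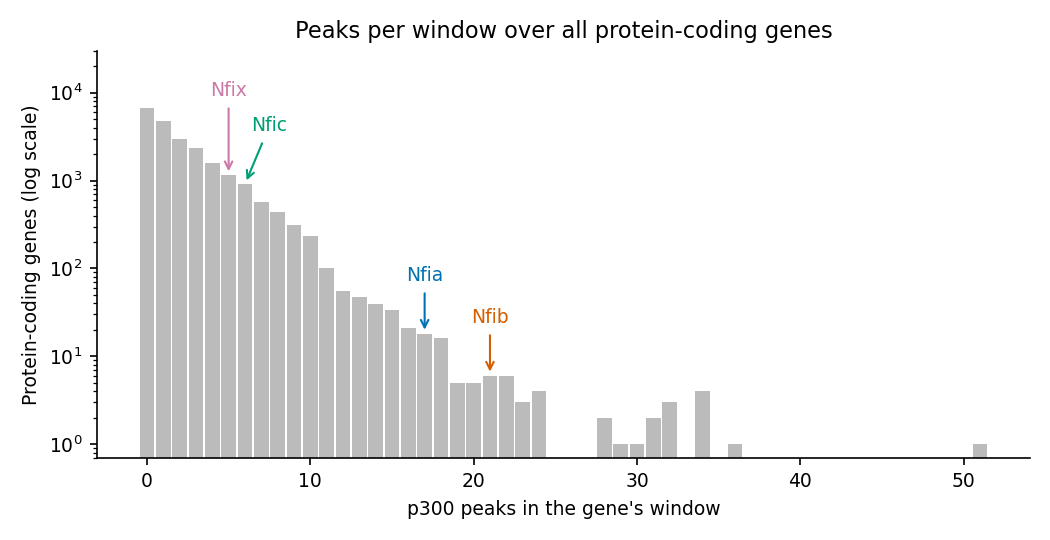
Histogram of the number of p300 peaks in the window of each of 22367 protein-coding genes (x axis) against the number of genes on a log scale (y axis), with arrows at the 4 Nfi genes. Nfia at 17 and Nfib at 21 sit in the sparse right tail, and Nfix at 5 and Nfic at 6 sit on the shoulder next to the bulk of genes at 0 to 3 peaks.

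Set against each other over 6 pairs, Nfib had more peaks than both Nfic and Nfix, and Nfia had more than Nfix. Nfib had 4.20 times as many peaks per base of window as Nfix (95% interval 1.54 to 14.3, two-sided exact binomial test adjusted over the pairs, p = 0.0150) and 3.50 times as many as Nfic (1.37 to 10.6, exact adjusted p = 0.0178). Nfia had 3.40 times as many as Nfix (1.20 to 11.8, exact adjusted p = 0.0338). The ratio of 2.83 between Nfia and Nfic missed the threshold (1.07 to 8.78, exact adjusted p = 0.0520). The neighbours in the order were not told apart, with a ratio of 0.810 for Nfia over Nfib (0.401 to 1.61, exact adjusted p = 0.753) and of 1.20 for Nfic over Nfix (0.305 to 4.97, exact adjusted p = 1.00). These intervals leave room for differences of over 1.5 times between Nfia and Nfib and between Nfic and Nfix. The pair test does not model the clustering of peaks either, so its p-values are too small and its intervals too narrow. With windows of 250 kb around the TSS none of the 3 differences that passed here did so, at ratios of 2.08 for Nfia over Nfix, 2.67 for Nfib over Nfic and 3.20 for Nfib over Nfix, and with close peaks joined the ratio of Nfia over Nfix also missed it, at 2.80.

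The 4 loci differ in how crowded they are. Besides the Nfi gene itself, the window held the TSS of 1 other coding gene for Nfia and 2 for Nfib, against 48 for Nfic and 33 for Nfix, and the median over all coding genes was 15.0. Window GC content followed the same division, at 40.9% and 41.4% for Nfia and Nfib and at 50.4% and 48.0% for Nfic and Nfix. Whether gene density or base composition has a part in the peak numbers was not tested. The even share also counts sequence at exons and within 2.5 kb of a TSS, where the authors had removed peaks. The windows of Nfic and Nfix, with more TSSs, hold more such sequence. Whether and by how much this lowers their folds against those of Nfia and Nfib was not tested. When each gene was instead given the regulatory domain that extends to its nearest neighbours (5 kb upstream to 1 kb downstream of the TSS, extended up to 1 Mb), the domains of Nfic and Nfix shrank to 87.7 and 97.8 kb. Each then held 4 peaks, a 17.6-fold excess for Nfic (exact adjusted p = 0.0117) and a 15.8-fold excess for Nfix (exact adjusted p = 0.0165). Of the 4 Nfic peaks, 3 formed a group with gaps under 5 kb, and domains were not tested with such peaks joined. Nfia had 13 peaks in a domain of 590 kb, 8.50-fold (exact adjusted p = 5.26e-06), and Nfib had 30 in 1353 kb, 8.56-fold (exact adjusted p = 1.00e-14). The paper, using domains of this kind on the same peaks, already lists Nfib with 30 peaks among its most enriched genes. The Nfia domain ended just past the TSS, at chr4:97445299, so it held none of the 6 peaks inside the gene. By the domain rule all 4 Nfi genes were called, where 255 of all coding genes, or 1.14%, were. For Nfic and Nfix the call thus differed between windows and domains, which differ in length and in how they are bounded, whereas windows of 250 kb gave no call (exact adjusted p = 0.0697 and 0.209).

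Despite the authors' exon filter, 5 of the 49 peaks touched an exon of the annotation used here. It placed 28 of the 49 peaks inside the body of their Nfi gene, 10 inside another coding gene and 11 between coding genes. Of the 49, 14 lay within 50 kb of the Nfi TSS and 30 over 100 kb from it, and the TSS nearest to the peak was that of the Nfi gene for 29. At Nfia (ENSMUSG00000028565, plus strand, chr4:97439425-97868605) 11 peaks were upstream and 6 downstream of the TSS, with a median distance of 150 kb. At Nfib (ENSMUSG00000008575, minus strand, chr4:81936077-82351654) 13 were upstream and 8 downstream, with a median of 160 kb. Nfic (ENSMUSG00000055053, minus strand, chr10:80858931-80893750) had 1 peak upstream and 5 downstream, at a median of 20.3 kb, and Nfix (ENSMUSG00000001911, minus strand, chr8:87223775-87324243) had 3 upstream and 2 downstream, at a median of 35.3 kb. The peaks of Nfia and Nfib were thus spread far from the TSS, and those of Nfic and Nfix were mostly near it.

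**Figure D2:**
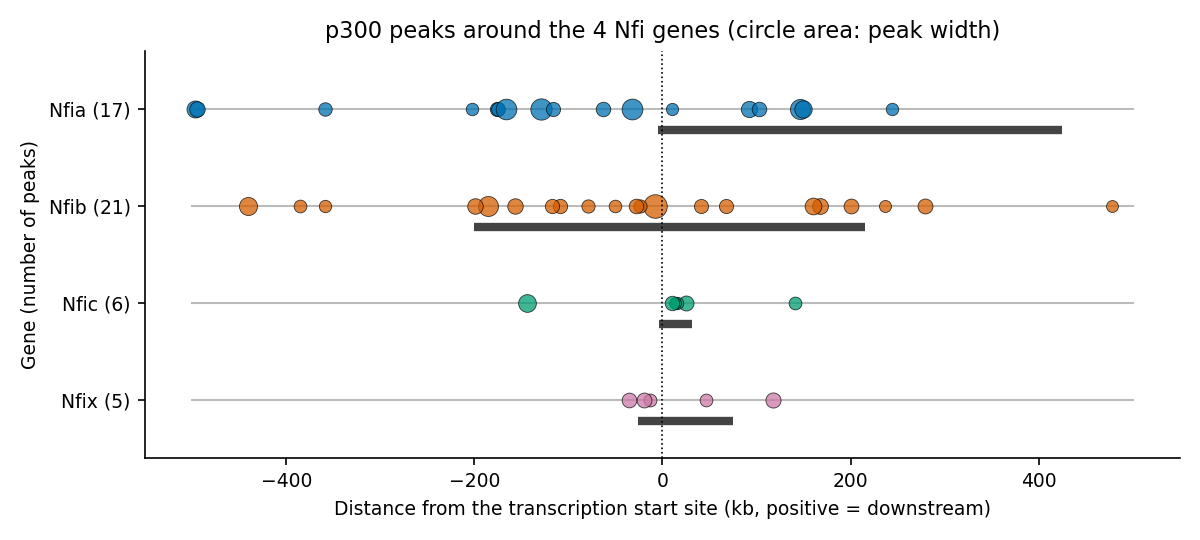
Positions of the 49 peaks relative to the TSS of each Nfi gene, in the direction of transcription (x axis in kb, 1 row per gene, circle area in proportion to peak width), with a dark bar for the gene body and a grey line for the reach of 500 kb. Nfia peaks run from 496 kb upstream to 245 kb downstream and Nfib peaks from 441 kb upstream to 478 kb downstream, while 4 of 6 Nfic peaks and 4 of 5 Nfix peaks sit within 50 kb of the TSS.

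At Nfia, 8 of the 11 upstream peaks lay inside E130114P18Rik, a coding gene model that starts 0.440 kb from the Nfia TSS and runs the other way. This gene shared the whole set of 17 peaks with Nfia, and position does not separate them. Its TSS was slightly nearer than that of Nfia to the 6 peaks inside Nfia, as with peak 4407 at 9.76 against 10.2 kb. These 6 were therefore not counted above as nearest to the Nfi gene. The densest 100 kb of the locus lay inside E130114P18Rik, with 6 peaks (4399 to 4404) between 116 and 202 kb upstream of Nfia. The other 3 upstream peaks were intergenic, 359, 495 and 496 kb from the TSS, toward the model Gm10192, the next coding gene 590 kb away. The outermost pair, 4396 and 4397, were separated by 0.0820 kb, and the next peak further out stood at 541 kb, just outside the window. On the other side, 5 peaks lay in intron 2 at 10.2 to 150 kb and 1 in intron 6 at 245 kb, after which no peak followed up to 561 kb. The next coding gene there, Tm2d1, is 153 kb from the end of Nfia.

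At Nfib, 15 of 21 peaks lay inside the gene body, but 10 of these were upstream of the TSS used, in the 200 kb that longer annotated transcripts of the gene add. They stood 7.44 to 200 kb from the TSS, and 6 of them (4346 to 4351) fell within 94.6 kb, the densest stretch of the locus. The farthest, peak 4354 (chr4:82350339-82351729), spanned the 5′ end of the gene body at 82351654, where a longer annotated transcript starts. In the annotation used here that peak was thus at a promoter. The 5 peaks downstream of the TSS within the body were in introns 2, 6 and 11, at 2, 2 and 1 peaks. Upstream of the body 3 peaks followed at 358, 386 and 441 kb, past Zdhhc21, which encodes a protein palmitoyltransferase, and the last of them lay in Frem1, an extracellular matrix gene. The TSS of Zdhhc21 was nearer than that of Nfib for 3 peaks and that of Cer1, a secreted antagonist of BMP and Nodal signals, for 2. Beyond the 3′ end, 3 peaks stood at 237, 279 and 478 kb in a stretch with no coding gene, since Mpdz, the next one, is 847 kb away. One more peak there stood at 505 kb, just past the limit.

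At Nfic, 4 of 6 peaks (610 to 613) stood within 16.1 kb inside the gene, 10.3, 13.1, 15.5 and 25.1 kb downstream of the TSS, the first 3 of these in intron 2 and the last in intron 9. The remaining pair lay in other genes' neighbourhoods, 1 in the tight junction gene Tjp3 at 141 kb and 1 beside Tle2, a Groucho-family co-repressor gene, at 144 kb. No further peak stood within 1236 kb upstream or 3743 kb downstream of Nfic. At Nfix, 1 peak was in intron 2 at 45.8 kb, and 2 were 13.4 and 19.8 kb upstream of the TSS within longer transcripts of the gene. Another upstream peak stood at 35.3 kb, toward Dand5, a relative of Cer1, and 1 downstream peak at 118 kb, next to the immediate early gene Ier2. The coding genes closest to Nfic on either side were 2210404O07Rik and the RNA-binding protein gene Celf5, at 0.793 and 28.2 kb, and those closest to Nfix were Trmt1, a tRNA methyltransferase gene, and Dand5, at 0.0670 and 15.1 kb. Both Lyl1, which encodes a basic helix-loop-helix factor, and G430095P16Rik overlapped Nfix.

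Intron 2 was the position that recurred in all 4 genes. In each it follows an exon of 532 bases, which encodes most of the conserved DNA-binding domain, and it held 11 of the 16 peaks found in introns of the 4 transcripts (68.8%), while making up 342 of their 621 kb of intron. It held 5 peaks in Nfia, 2 in Nfib, 3 in Nfic and 1 in Nfix. It was also the longest intron of each transcript, at 173, 115, 10.6 and 43.8 kb in the order Nfia, Nfib, Nfic and Nfix, and the density over this length was 2.89, 1.75, 28.3 and 2.28 peaks per 100 kb. Other introns with a peak were denser in 3 of the genes, at 4.86 per 100 kb in intron 6 of Nfia, 10 in intron 6 and 7.41 in intron 11 of Nfib, and 43.9 in intron 9 of Nfic. These values rest on 1 or 2 peaks each, and no test was made on single introns. Over whole gene bodies, Nfia had 6 peaks in 429 kb, against 1.93 peaks per 100 kb in the rest of its window, so its peaks were not concentrated in the gene. In Nfib the density was 3.61 per 100 kb in the body against 1.03 in the rest, in Nfic 11.5 against 0.207 and in Nfix 2.99 against 0.222.

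Within a window, the median gap between neighbouring peaks was 32.0 kb at Nfia, 28.1 kb at Nfib, 8.52 kb at Nfic and 36.2 kb at Nfix, and these values leave out the gaps to the next peak outside. With the gap on either side of the set included, the medians were 38.1 kb at Nfia, 28.1 kb at Nfib, 115 kb at Nfic and 64.7 kb at Nfix, against 127 kb over all peaks. The short gaps at Nfic were thus those of the peaks inside the gene. Joining peaks less than 5 kb apart left 14 of 17 regions at Nfia, 20 of 21 at Nfib, 4 of 6 at Nfic and 5 of 5 at Nfix, so that Nfic lost 2 of its 6. After joining, the fold over the even share was 5.86 for Nfia, 8.38 for Nfib, 1.68 for Nfic and 2.09 for Nfix.

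The peaks of the Nfi genes tended to be wide. Their median width was 1218 bp against 1017 bp over all peaks, and 34 of 49 (69.4%) were at least as wide as the series median, against 50.1% of all peaks. By gene the median was 1227 bp for Nfia, 1183 bp for Nfib, 1072 bp for Nfic and 1248 bp for Nfix, and the ranges overlapped (861 to 2614, 812 to 3201, 822 to 1812 and 939 to 1318 bp). The widest, peak 4345, spanned 3201 bp 7.44 kb upstream of the Nfib TSS, and only 22 peaks of the series were wider. At Nfia, peak 4403 spanned 2614 bp, with 58 wider peaks. Counting only peaks at least as wide as the series median left 14 at Nfia and 14 at Nfib, each 10.8-fold the even share. It left 3 at Nfic and 3 at Nfix, each 2.31-fold. Peaks covered 2.58% of the Nfia window, 2.80% of the Nfib window, 0.697% of the Nfic window and 0.573% of the Nfix window, against 0.290% of the genome. Width was the sole measure of a peak in the list, and it reflects the signal as well as the fragment length and the caller's settings.

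Peak GC content divided the family as the windows did. The median was 43.2% at Nfia and 44.5% at Nfib, near the 45.2% of all peaks, and 60.2% at Nfic and 56.3% at Nfix. The 17 Nfia peaks ran from 38.1 to 47.2% and the 6 Nfic peaks from 56.6 to 61.7%, so these groups did not overlap. Nfib peaks reached 51.7%, just above the lowest Nfix peak at 51.4%.

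**Figure D3:**
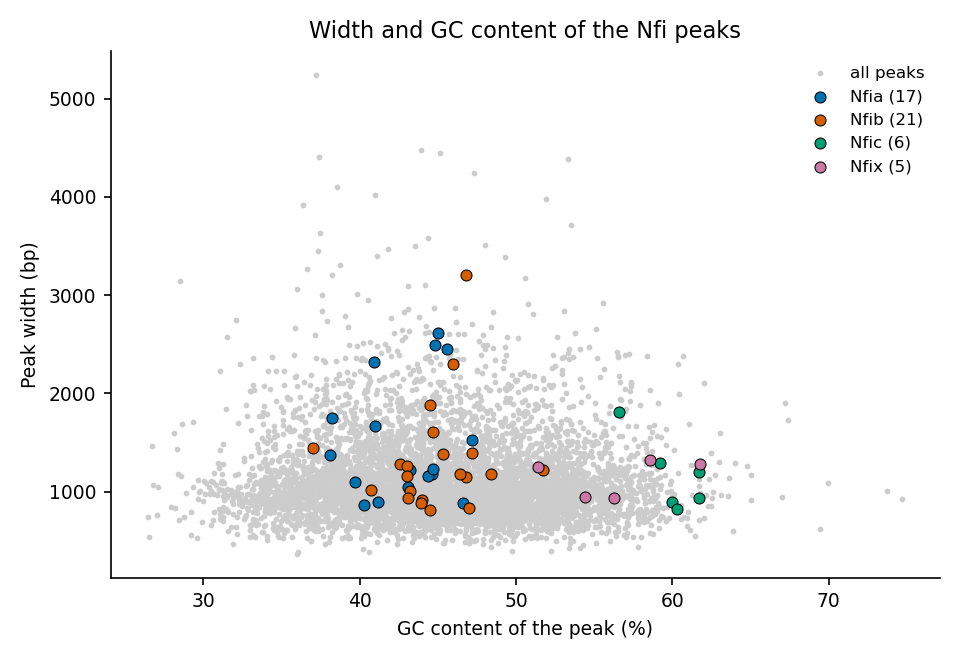
GC content in percent (x axis) against width in bp (y axis) of the 49 Nfi peaks, coloured by gene, over all 6629 peaks in grey. Nfia and Nfib peaks lie at 37.0 to 51.7% GC and Nfic and Nfix peaks at 51.4 to 61.8%, and the widest Nfi peaks belong to Nfib and Nfia.

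The share of Nfi peaks with the full Nfi dimer could not be told from that of the series. The 2 sites shown above amount to 4.08% of the 49 peaks (exact Clopper-Pearson 95% interval 0.498 to 14.0%), and 443 of all 6629 peaks (6.68%, 6.09 to 7.31%) held the sequence. Regions of the same length 10 kb downstream of each peak held it in 2.12% of 6448 cases, and those 10 kb upstream in 1.89% of 6452. The interval for the Nfi peaks thus spans both the level of all peaks and that of the regions beside them. Per 100 kb of peak the Nfi peaks held 3.01 dimers, from 2 sites, against 6.38 over all peaks and 1.92 in the regions downstream. Nfic and Nfix had no dimer in 6 and 5 peaks, which at these numbers allows shares of up to 45.9% and 52.2%. Across the series the 474 dimer sites gathered at the middle of the peaks, with a median distance of 140 bp from the midpoint and 41.4% within 100 bp. The site in Nfia lay 131 bp from the midpoint of its peak and the site in Nfib 371 bp from its own, so the Nfib site stood well off the centre. The dimer sequence was more common in the windows of Nfic and Nfix than in those of Nfia and Nfib. The copies numbered 33 and 31 against 14 and 11, nearly all of them outside peaks. Regions beside the peaks were not matched to them for GC content, at 43.5% against 45.3% over the pooled sequence of all peaks.

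**Figure D4:**
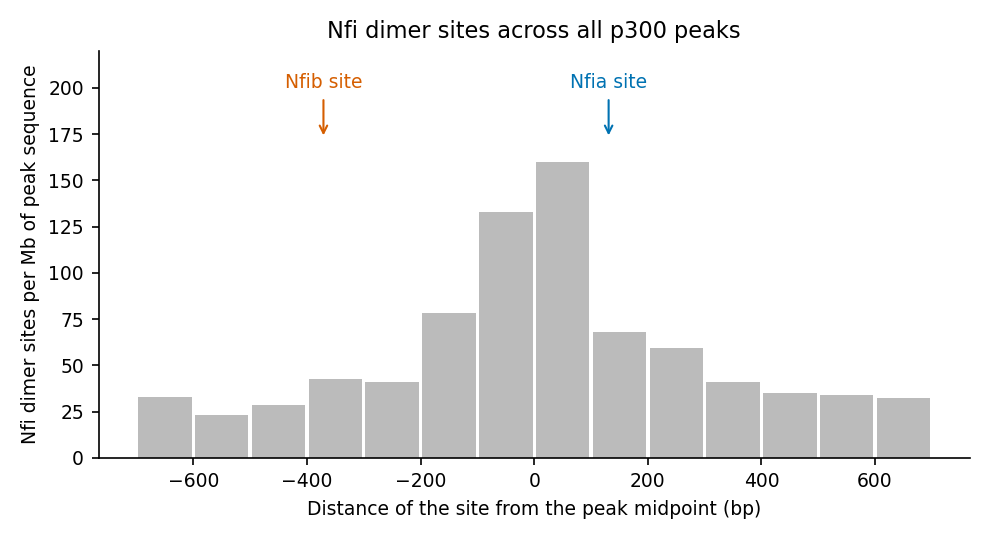
Density of Nfi dimer sites over all 6629 peaks, in sites per Mb of peak sequence (y axis), by distance from the peak midpoint in bins of 100 bp (x axis), with the 2 sites of the Nfi genes marked. The central bins reach 133 and 160 sites per Mb and the bins beyond 300 bp lie lower, and the Nfib site falls in the low outer part.

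A second arrangement of the same subunits, TGCCANNTGGCA, was in 0 of the 49 Nfi peaks, which allows a share of up to 7.25%, and in 46 of all peaks (0.694%). With 1 mismatch allowed it was found in 5 Nfi peaks (10.2%), namely 4403, 4406 and 4409 at Nfia and 4341 and 4357 at Nfib, against 10.4% of all peaks. The paper, which scored matches to a weight matrix, reported its alternative Nfi dimer in many more peaks than the exact letters did. A peak without the exact letters may thus still hold that motif. Single TTGGC sites were in all 49 Nfi peaks and in 89.5% of all peaks, or 91.7% of the 5411 peaks no shorter than the shortest Nfi peak (812 bp), and in 80.9% of regions 10 kb downstream. With so short a sequence, wide peaks hold more by length alone. Per kb of peak the density was 3.07 at Nfia, 3.44 at Nfic and 2.44 at Nfix, and Nfib had 70 sites in 28030 bp of peaks, against 2.29 over all peaks and 1.71 in the regions downstream. The median peak was nearer to the rest, at 2.32 per kb for Nfia, 2.19 for Nfib, 2.38 for Nfic and 1.52 for Nfix against 2.14 over all peaks, so the higher totals came from a few peaks.

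Those few peaks were mostly in intron 2 of Nfia and at Nfic. Peak 4408, which carries the dimer, held 13 single sites in 1529 bp, or 8.50 per kb, and only 10 peaks of the series were denser. Peak 4410, in the same intron, also held 13, a number that 5 peaks of the series reached, these included. Peak 4411, shown above, held 8. At Nfic the densest was peak 611 with 6.70 per kb, and peak 614 beside Tle2 held 10. At Nfix peak 5977 stood alone with 8 sites, 6.26 per kb, where the other 4 peaks held 1 or 2 each. Peaks 4400 and 4401 at Nfia, in E130114P18Rik, had 1 site each, so within the Nfia locus alone the density ran from 0.850 to 8.50 per kb.

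**Figure D5:**
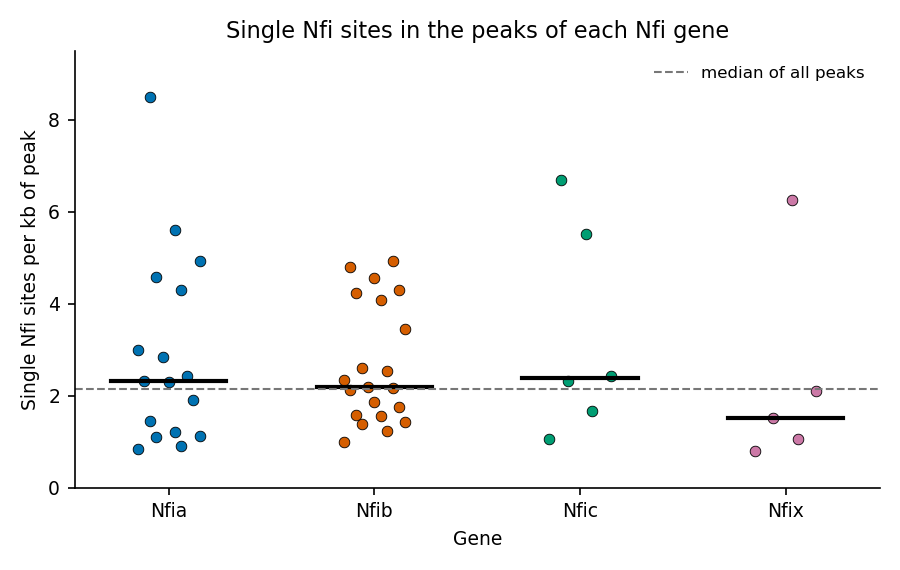
Single Nfi sites per kb (y axis) in each peak of the 4 Nfi genes (x axis, 1 point per peak), with bars at the median of each gene and a dashed line at the median of all peaks. The medians of 1.52 to 2.38 per kb lie close to the line at 2.14, while single peaks reach 8.50 at Nfia, 6.70 at Nfic and 6.26 at Nfix.

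Other sequences, searched like the Nfi sites on both strands, had shares whose intervals took in both the level of the series and that of the regions 10 kb downstream. The E-box CATCTG, bound by proneural factors of the Neurog and Neurod families, was in 34 of 49 Nfi peaks (69.4%, 54.6 to 81.7%), in 74.8% of all peaks and in 58.8% of the regions 10 kb downstream. The homeodomain core TAATTA, bound by Lhx and many other homeodomain factors, was in 20 of 49 (40.8%, 27.0 to 55.8%), in 46.7% of all peaks and in 29.7% of regions downstream. It was in 8 of 17 Nfia and 10 of 21 Nfib peaks but in 1 of 6 Nfic and 1 of 5 Nfix peaks, the ones with high GC content, and this difference was not tested. The Rfx dimer was in 1 of 49, peak 4338 downstream of Nfib, (2.04%, 0.0517 to 10.9%), against 3.74% of all peaks. A match to such short letters describes the sequence and does not show that a factor binds. The richest stretches of 200 bases of either kind are shown as the clearest examples of these sequences at the Nfi genes, again on the plus strand of mm9 with the matches in capitals. The E-box stretch lies in intron 2 of Nfib (chr4:82110240-82110439) and the homeodomain stretch in the outermost upstream peak of Nfia (chr4:96947747-96947946).
Nfib peak 4344: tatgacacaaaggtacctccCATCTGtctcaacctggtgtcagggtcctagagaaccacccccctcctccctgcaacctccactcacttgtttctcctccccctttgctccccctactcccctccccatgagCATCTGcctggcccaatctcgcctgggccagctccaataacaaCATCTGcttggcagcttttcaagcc
Nfia peak 4396: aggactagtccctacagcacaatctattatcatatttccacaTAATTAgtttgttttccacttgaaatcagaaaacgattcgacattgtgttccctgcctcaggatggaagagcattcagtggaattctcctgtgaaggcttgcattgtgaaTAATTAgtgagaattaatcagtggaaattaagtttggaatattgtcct
The first held 3 E-boxes and the second 2 homeodomain cores.

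The family members are close relatives as proteins, and the peaks around their genes were compared by a BLAST search. Translated from the annotated transcripts, the first 200 residues, which hold the DNA-binding and dimerization domain, were 81.1% identical in the least similar pair, Nfic and Nfix, and 88.4% in the most similar, Nfia and Nfib. Over the remaining residues identity fell to between 45.6% for Nfic and Nfix and 63.1% for Nfia and Nfix. The BLAST search among the 49 peaks at an E-value of up to 0.001 found 0 similar pairs, between genes or within a gene. Weaker likeness would be missed at that threshold, so the search does not show that the peaks are unlike. The Nfix transcript with the longest coding sequence lacks a start methionine in this annotation, so its values rest on an incomplete model.

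Genes known as partners or targets of Nfi proteins in brain development had from 0 to 7 peaks in windows drawn in the same way. Of 11 such genes 0 were called by the exact binomial test across all coding genes, against 4.09% of all coding genes, and 4 had an unadjusted p below 0.05, as had 12.6% of all coding genes. The median was 3 peaks in a window against 1.00 for all coding genes, and 7 of 11 had more than the even share, as had 35.2% of all coding genes. Ezh2, a Polycomb methyltransferase gene, had 7 peaks (exact adjusted p = 0.197). Sox9, a driver of glial fate that works with Nfia, had 6 (exact adjusted p = 0.383), as had Insc, which orients the mitotic spindle, and Apcdd1, which encodes a Wnt inhibitor. Zcchc24, a zinc finger gene, had 4, and Mmd2 and the axon guidance receptor gene Nrp1 had 3 each. Hes1, a Notch effector gene, and Fabp7, a radial glial fatty acid-binding protein gene, had 2 each, Bbx, which encodes an HMG-box factor, had 1, and Gfap, the intermediate filament gene of astrocytes, had 0. With regulatory domains in place of fixed windows, Sox9 alone of the 11 was called, with 13 peaks (4.45-fold, exact adjusted p = 0.00243). Of all coding genes 1.14% were called by domains.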

How the data were processed

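p300 ChIP-seq was done on 1 sample of dorsal cerebral wall, with 1 input library, which is not analysed here. The authors used ELAND for alignment to mm9 (single best place, at most 2 mismatches) and MACS, version 1.4 per the submitters' processing notes, for peak calling with the input as control. Their filters on exons, on a distance of 2.5 kb to any TSS and on mappability mean that the list holds regions distal in the annotation they used. The deposited list gives the start and end of 6629 peaks and no counts or signal, so depth per peak is unknown.

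Peak midpoints were counted in windows of 22367 coding genes (GENCODE vM1) on NCBIM37, the same assembly as mm9. Counts were compared with the share of the assembly that a window took up, by a one-sided exact binomial test adjusted after Benjamini and Hochberg (threshold 0.05), and between Nfi genes (two-sided exact binomial test over 6 pairs). Motifs were searched as consensus letters on both strands in peaks and in regions of the same length 10 kb to either side, leaving out regions that met a peak or unassembled bases. Of the peaks, 5 held unassembled bases. Python 3.11.15, numpy 2.4.6, scipy 1.17.1, pysam 0.24.0, Biopython 1.88, BLAST 2.17.0 and matplotlib 3.10.9 were used, and the counting, the test and the motif search were tested on simulated data. Named were the Nfi genes, the coding genes on either side, coding genes with a TSS nearer to a peak (up to 5 a member), the neighbours of a called member in the order of p, and the 11 partner and target genes; an item that this rule covers is not reported here. Beyond this rule, Lyl1, Frem1 and the gene models that a peak fell in were named after their values were seen. The members and lists were chosen with earlier results of these data known. Alternatives changed the window, the TSS, the peaks and genes counted, the expected rate, the motif form and the sequence searched.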

Additional observations from a re-analysis of the deposited data

How the results depend on the processing

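No paired analysis was possible because there was 1 p300 library. Nfia and Nfib were called in all 9 alternatives run for each (other windows, start sites, peaks, rates and gene sets), with folds of 5.04 to 10.8 and 6.23 to 12.4. The regulatory domain of Nfia among these left out the peaks inside the gene. Nfic and Nfix were called with regulatory domains alone, at 17.6 and 15.8. Of 107 alternatives over 23 results, 81 left the call or value as it was, 26 did not and 2 of these turned a direction; the cause was not tested. Coding genes called numbered 468 with windows of 250 kb, 1537 with 1 Mb, 515 with peaks under 5 kb apart joined, 459 with only peaks of median width or more, 255 with regulatory domains and 1573 over all 37273 annotated genes. Of the 11 partner and target genes 1, Sox9, was called with 1 Mb, where 6.87% of coding genes were, and with domains, where 1.14% were. The ratio of Nfia to Nfic passed the threshold with 1 Mb (4.67) and with wide peaks (4.67). Nfia to Nfix no longer did with 250 kb (2.08) or joined peaks (2.80), nor did Nfib to Nfic (2.67) and Nfib to Nfix (3.20) with 250 kb. Nfic to Nfix turned, without passing in either form, to 0.750 with 1 Mb and 0.800 with joined peaks. With 1 mismatch the second dimer form was in 10.2% of Nfi peaks and 10.4% of all peaks. In the middle 500 bp, single sites were in 79.6% of Nfi peaks and 73.3% of all, the dimer in 2.04% and 4.62% and the second form in 0% and 0.468%, and with 10 fixed bases the dimer was in 2.04% of Nfi peaks, or 1 of 49, and 0.362% of all peaks. Joining peaks raised the median Nfic width to 1552 bp. With no score in the list, a peak's strength could not be used to weigh it, and 1 library gives no error between samples.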
